A study of Mus musculus with 13 samples.

Results

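The 41 genes described here act in the repair of broken DNA and in the Fanconi anaemia pathway, and were followed in the deposited tables of mouse spermatogonia, the mitotic germ cells of the testis. They were chosen by name from knowledge of the pathway, with earlier results of these data known. All 41 have a row among the 20662 gene symbols that both tables list. RNA was measured by sequencing of ribosomal-RNA-depleted, directional libraries from testes of 8-week-old wild-type C57BL/6 mice. Of 13 samples in the series, the spermatogonial samples titled KIT_AGSC and THY1_AGSC were used, 1 library apiece, and 11 more samples were not analysed here. Both come from the same strain, age and tissue, and they differ in the surface antigen of their titles, KIT (a receptor tyrosine kinase found on differentiating spermatogonia) or THY1 (used to enrich undifferentiated spermatogonia). How the cells were isolated, and whether animals were pooled, is not given in the sources used here.

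A break through both DNA strands can be rejoined directly, by end joining, or copied back from an intact sister or homologous chromosome, by homologous recombination. The kinases ATM and ATR raise the alarm, the MRN complex holds and trims the ends, RPA covers the exposed single strand, and BRCA2 with its partners prepares that strand for the search for an intact copy. The Fanconi anaemia proteins act in the repair of crosslinks between the strands. In the testis this machinery guards dividing spermatogonia and also repairs the breaks that germ cells make on purpose at the start of meiosis.

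With 1 library per group there is no replicate, so no test was possible and each difference below is between these 2 libraries and carries counting and preparation error of unknown size. Antigen transcripts ran against the titles. Thy1 was at 78.8 FPKM (fragments counted per unit of transcript length and of library size) in the KIT-labelled library and 0.723 FPKM in the THY1-labelled library, while Kit was listed at 0 in the KIT-labelled library and at 36.7 FPKM in the THY1-labelled library. The column headers are crossed in the same way, Thy1 heading the values of the sample titled KIT. Titles are followed here and every direction would turn if they were exchanged. Total counts are unknown, and 1 fragment was worth an estimated 6.41 times as much FPKM in the KIT-labelled library, so low values there rest on few fragments and a value of 0 is given only as listed. Genes that nearly all cells use are among the zeros, such as Ppia in both libraries and Hprt in the KIT-labelled library, against 56.2 FPKM in the THY1-labelled library.

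Most of the repair genes that differed were at a lower level in the KIT-labelled library. Each gene's difference is given on the log2(FPKM + 1) scale as KIT-labelled minus THY1-labelled, where its larger level was 1 FPKM or more, and it was counted when it reached 2-fold on that scale. Of the 41 genes, 38 passed this minimum. At least 2-fold higher levels in the KIT-labelled library were found for 10 of the 38 (26.3%), against 39.5% of all 15573 genes that passed. At least 2-fold lower levels there, that is higher in the THY1-labelled library, were found for 19 (50%), against 41.1% of all genes. The other 9 lay within 2-fold, beside 19.4% of all genes, so 80.6% of all genes reached 2-fold either way. The median difference of the 38 was -0.99, and that of all genes was 0.00. Rpa3 and Fancf were listed at 0 in both libraries, and Lig4 was at 0.519 FPKM in the KIT-labelled library and listed at 0 in the other. In bulk RNA, fewer cells of a type and less RNA per cell cannot be told apart.

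Levels were also spread differently. In the KIT-labelled library, 8 of the 41 genes exceeded 50 FPKM, 6 lay from 10 to 50 FPKM and 27 were under 10 FPKM, of which 8 were listed at 0 (33.2% of all genes were). In the THY1-labelled library, 3 exceeded 50 FPKM, 23 lay from 10 to 50 FPKM and 15 were under 10 FPKM, of which 3 were listed at 0 (24.2% of all genes were). Apart from the zeros, shares of all genes in these bands were not computed, so the counts describe the 41 genes only. Across the 41 genes, which share both libraries and their depth, Spearman's rho between the levels was 0.28, and it was 0.11 across all genes over the minimum. The 41 include Rpa3, Fancf and Lig4, which were under the minimum, so these values do not come from like sets.

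**Figure D1:**
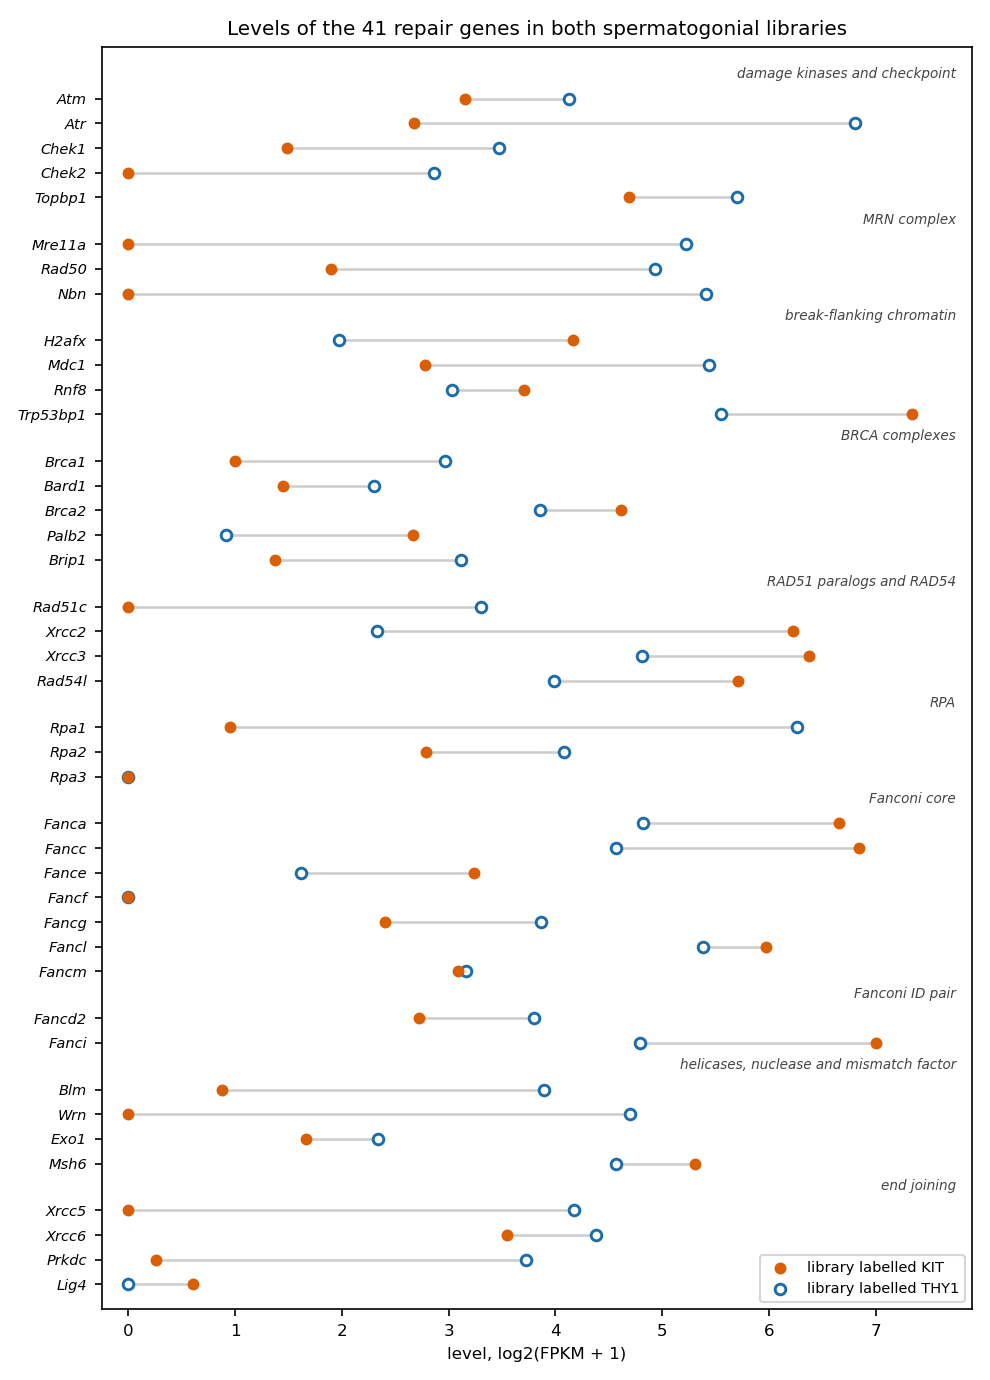
Level of each of the 41 repair genes as log2(FPKM + 1), filled points for the KIT-labelled library and open points for the THY1-labelled library, grouped by role. Grey lines join the 2 values of a gene. All 3 MRN genes lie to the left in the KIT-labelled library, whereas Fanca, Fancc, Fanci, Xrcc2, Xrcc3, Rad54l and Trp53bp1 lie to the right.

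The alarm kinases and their partners were lower in the KIT-labelled library. Atr, the kinase that answers exposed single-stranded DNA, was at 5.37 FPKM in the KIT-labelled library and 110.8 FPKM in the THY1-labelled library, a log2 difference of -4.13. It had the highest level of the 41 genes in the THY1-labelled library, at percentile 95.7 of all genes there and percentile 62.0 in the KIT-labelled library. Its effector kinase Chek1 was at 1.79 FPKM in the KIT-labelled and 10.1 FPKM in the THY1-labelled library. Topbp1, an activator of ATR, was at 24.8 FPKM in the KIT-labelled library and 50.8 FPKM in the THY1-labelled library, just past 2-fold at -1.01. Atm, the kinase that answers the break itself, was just inside it at -0.98, with 7.88 FPKM in the KIT-labelled library and 16.5 FPKM in the THY1-labelled library. Chek2, the effector kinase downstream of ATM, was listed at 0 in the KIT-labelled library and stood at 6.29 FPKM in the THY1-labelled library. The count for the group was therefore 0 higher and 4 lower of 5.

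The MRN complex, which recognises ends and begins their trimming, differed in all 3 subunits. Its nuclease gene Mre11a was listed at 0 in the KIT-labelled library and at 36.4 FPKM in the THY1-labelled library. Nbn, whose product brings ATM to the complex, was likewise listed at 0 in the KIT-labelled library, and stood at 41.6 FPKM in the THY1-labelled library. Rad50, the tethering subunit, was at 2.72 FPKM in the KIT-labelled library and 29.5 FPKM in the THY1-labelled library, a difference of -3.04. In the THY1-labelled library the 3 levels kept within 1.41-fold of each other. At the lengths of their coding transcripts, 3 fragments would correspond to about 1.45 FPKM of Mre11a and 3.24 FPKM of Nbn in the KIT-labelled library, so levels below these may be listed at 0 there.

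Genes for the chromatin response beside a break did not move one way. Trp53bp1, whose product shields ends from trimming and favours end joining, was at 160.9 FPKM in the KIT-labelled library and 45.8 FPKM in the THY1-labelled library, a ratio of 3.52, and had the highest level of the 41 genes in the KIT-labelled library. H2afx, for the histone variant H2A.X that is phosphorylated around breaks, was at 16.9 FPKM in the KIT-labelled library and 2.92 FPKM in the THY1-labelled library. Mdc1, the adaptor that binds phosphorylated H2A.X, was opposite at 5.85 FPKM in the KIT-labelled and 42.3 FPKM in the THY1-labelled library. The ubiquitin ligase gene Rnf8, which acts after MDC1, was within 2-fold at 12.1 FPKM in the KIT-labelled library and 7.19 FPKM in the THY1-labelled library. The histone and the adaptor that reads it thus stood in opposite order in the 2 libraries.

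The BRCA genes were low to moderate and split. Brca2, which acts in homologous recombination, was at 23.5 FPKM in the KIT-labelled library and 13.4 FPKM in the THY1-labelled library, within 2-fold. Palb2, the bridge between BRCA1 and BRCA2, was at 5.35 FPKM in the KIT-labelled and 0.888 FPKM in the THY1-labelled library, a difference of 1.75. Brca1, a ubiquitin ligase subunit that promotes recombination, was at 0.997 FPKM in the KIT-labelled library and 6.82 FPKM in the THY1-labelled library, a difference of -1.97. Its obligate partner Bard1 was within 2-fold at 1.73 FPKM in the KIT-labelled and 3.93 FPKM in the THY1-labelled library. Brip1, a helicase that binds BRCA1, was at 1.58 FPKM in the KIT-labelled library and 7.69 FPKM in the THY1-labelled library. The ratio of Brca1 to Bard1 was 0.576 in the KIT-labelled library and 1.74 in the THY1-labelled library. The former rests on an estimated 2.40 fragments of Brca1 and 3.58 of Bard1, so it is poorly known.

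The 4 further genes of strand exchange held the gene with the greatest excess in the KIT-labelled library. Xrcc2, which acts in homologous recombination, was at 73.8 FPKM in the KIT-labelled library and 4.03 FPKM in the THY1-labelled library, a ratio of 18.3 and a log2 difference of 3.90. Xrcc3, which acts in the same pathway, was at 81.7 FPKM in the KIT-labelled and 27.0 FPKM in the THY1-labelled library, and Rad54l, which remodels DNA during strand invasion, was at 51.5 FPKM in the KIT-labelled and 14.8 FPKM in the THY1-labelled library. Rad51c was the exception of the 4, listed at 0 in the KIT-labelled library and at 8.86 FPKM in the THY1-labelled library. Its product pairs with XRCC3, yet the 2 transcripts differed in opposite directions.

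The RPA trimer that coats single-stranded DNA was lower in the KIT-labelled library for both subunits over the minimum. Rpa1, the large DNA-binding subunit, was at 0.939 FPKM in the KIT-labelled library and 75.7 FPKM in the THY1-labelled library, a difference of -5.31. Rpa2, the middle subunit, was at 5.90 FPKM in the KIT-labelled and 15.9 FPKM in the THY1-labelled library. The ratio of Rpa1 to Rpa2 was 0.159 in the KIT-labelled library and 4.76 in the THY1-labelled library. In the KIT-labelled library it rests on an estimated 1.74 fragments of Rpa1 and 3.91 of Rpa2, so it is poorly known.

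Fanconi genes included several of the highest values in the KIT-labelled library. The core complex is a ubiquitin ligase, and its scaffold gene Fanca was at 99.8 FPKM in the KIT-labelled library and 27.2 FPKM in the THY1-labelled library, a ratio of 3.68. Fancc, another core subunit, was at 113.6 FPKM in the KIT-labelled and 22.6 FPKM in the THY1-labelled library, a ratio of 5.02. Fance, which contacts the substrate FANCD2, was at 8.43 FPKM in the KIT-labelled library and 2.08 FPKM in the THY1-labelled library. These 3 of the 6 core genes over the minimum were higher in the KIT-labelled library.

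Other core genes did not share that direction. Fancl, the catalytic subunit, was within 2-fold at 61.7 FPKM in the KIT-labelled library and 40.7 FPKM in the THY1-labelled library. Fancm, a translocase that anchors the complex on DNA, was almost level at 7.47 FPKM in the KIT-labelled and 7.97 FPKM in the THY1-labelled library. Fancg, a partner of FANCA, was lower in the KIT-labelled library at 4.30 FPKM, against 13.6 FPKM in the THY1-labelled library.

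The substrate pair of the core complex, FANCD2 and FANCI, which bind each other on DNA, was at odds in the KIT-labelled library. Fanci was at 127 FPKM in the KIT-labelled library and 26.7 FPKM in the THY1-labelled library, a difference of 2.21. Fancd2 had the opposite order, at 5.61 FPKM in the KIT-labelled library and 12.9 FPKM in the THY1-labelled library, a difference of -1.08. Fanci thus exceeded Fancd2 by 22.7-fold in the KIT-labelled library and by 2.06-fold in the THY1-labelled library. Partner ratios were looked at after the values had been seen.

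Helicases of the RecQ family were lower in the KIT-labelled library. Blm, which dissolves recombination intermediates, was at 0.841 FPKM in the KIT-labelled library and 13.9 FPKM in the THY1-labelled library. Wrn, the Werner syndrome helicase, was listed at 0 in the KIT-labelled library and at 25.0 FPKM in the THY1-labelled library. The resection nuclease Exo1 was within 2-fold at 2.16 FPKM in the KIT-labelled and 4.06 FPKM in the THY1-labelled library. So was the mismatch recognition gene Msh6, at 38.5 FPKM in the KIT-labelled library and 22.7 FPKM in the THY1-labelled library.

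End joining genes were lower or level in the KIT-labelled library. Ku is a ring of 2 subunits that threads onto broken ends, and its genes are Xrcc5 and Xrcc6. Xrcc5 was listed at 0 in the KIT-labelled library and at 17.0 FPKM in the THY1-labelled library, while Xrcc6 was within 2-fold at 10.7 FPKM in the KIT-labelled and 19.8 FPKM in the THY1-labelled library. Prkdc, the kinase that Ku recruits, was at 0.196 FPKM in the KIT-labelled library and 12.2 FPKM in the THY1-labelled library, a difference of -3.46. The ligase gene Lig4 was under the minimum. In the THY1-labelled library the Ku transcripts were within 1.16-fold of each other.

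How many fragments stand behind each value limits these statements. The worth of 1 fragment was estimated as the product of FPKM and transcript length, taken at percentile 5 of the values above 0 among 2307 genes with a single annotated transcript, and came to 2735 in the KIT-labelled library and 427 in the THY1-labelled library. On that estimate 18 of the 41 genes had at least 10 fragments in the KIT-labelled library and 35 in the THY1-labelled library. Among the 10 genes higher in the KIT-labelled library, 7 had at least 10 fragments there, from about 56.9 for Rad54l to 566 for Trp53bp1. The other 3, H2afx, Palb2 and Fance, had about 8.55, 7.33 and 6.24 fragments in that library. All 19 genes higher in the THY1-labelled library had at least 33.6 fragments there. In the KIT-labelled library, 6 genes above 0 had fewer than 3 estimated fragments (Chek1, Brca1, Rpa1, Blm, Prkdc and Lig4), so the sizes of their differences are poorly known.

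**Figure D2:**
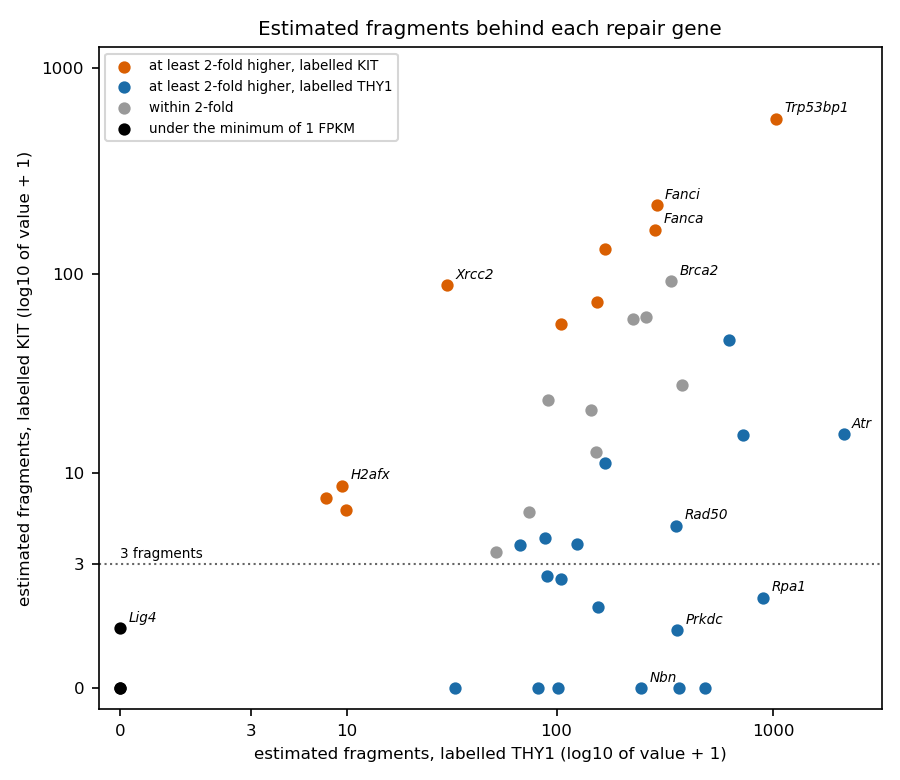
Estimated fragments behind each repair gene in the KIT-labelled library (vertical) and the THY1-labelled library (horizontal), each as log10 of the value plus 1, coloured by the size of the difference. The dotted line marks 3 fragments, and 6 genes above 0 lie under it in the KIT-labelled library.

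A minimum of 10 estimated fragments in the library with the larger value, a setting added after the data had been seen, left 35 of the repair genes. Of these, 7 were higher in the KIT-labelled library, against 29.7% of all genes that passed, and 19 were higher in the THY1-labelled library, against 52.4% of all genes. The median difference was then -1.08 for the repair genes and -1.18 for all genes. Under this minimum the repair genes did not lie below the rest. The setting itself favours genes higher in the THY1-labelled library, where a fragment is worth less FPKM.

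Several of the repair genes lie across a gene on the other strand, and strand-aware counting is not stated, so their reads may not be separable. Among the 41, 11 overlap such a gene of the tables in the GENCODE M21 annotation, and for 8 of them exons share bases. Of the 10 genes higher in the KIT-labelled library, 6 overlap and 4 (40.0%) share exon bases, whereas 2 (10.5%) of the 19 higher in the THY1-labelled library share exon bases. Over all genes with a gene model, these shares were 14.1% of 5416 and 8.13% of 5708. Within 2-fold, 2 of the 9 repair genes (22.2%) and 14.5% of all 2684 genes with a gene model shared exon bases. Shares of all genes for any overlap were not computed.

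The overlapping genes had values of their own. Trp53bp1 and Tubgcp4, a gamma-tubulin complex gene, share 2130 exon bases, and Tubgcp4 was at 178 FPKM in the KIT-labelled library and 53.6 FPKM in the THY1-labelled library, close to the values of Trp53bp1 itself. Fanca shares 552 exon bases with the zinc-finger gene Zfp276, which was at 42.1 FPKM in the KIT-labelled and 12.4 FPKM in the THY1-labelled library. Rad54l shares 128 exon bases with Lrrc41, at 68.2 FPKM in the KIT-labelled library and 32.4 FPKM in the THY1-labelled library. Fancc lies across 2010111I01Rik without shared exon bases, and that gene was at 18.3 FPKM in the KIT-labelled and 5.30 FPKM in the THY1-labelled library. These 4 overlapping genes were all higher by 2-fold or more in the KIT-labelled library, like the repair genes they overlap. So were 39.5% of all genes over the minimum.

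Others did not run with their repair gene. Fanci shares 665 exon bases with Polg, the mitochondrial DNA polymerase gene, which was at 33.0 FPKM in the KIT-labelled library and 38.8 FPKM in the THY1-labelled library. Xrcc3 shares no exon bases with Klc1, which was at 9.19 FPKM in the KIT-labelled and 51.7 FPKM in the THY1-labelled library. Atr shares 187 exon bases with 1700065D16Rik, which stood at 52.1 FPKM in the KIT-labelled library and 4.15 FPKM in the THY1-labelled library, the reverse of Atr. Xrcc2, H2afx, Palb2 and Fance overlap no gene of the tables. The part of overlap in these differences was not tested.

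**Figure D3:**
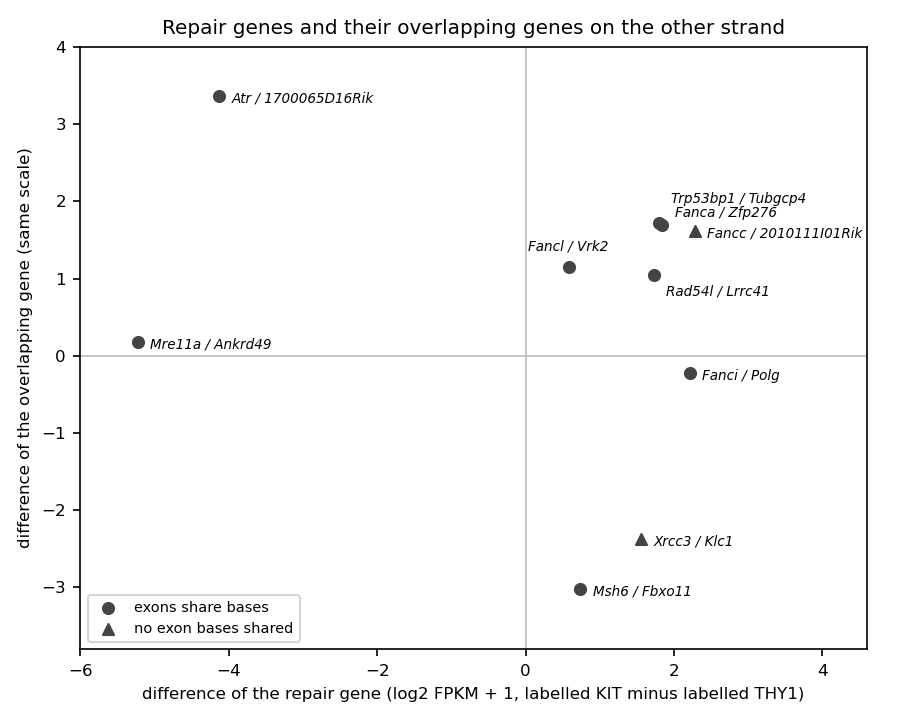
Difference of a repair gene (horizontal) against that of the gene overlapping it on the other strand (vertical), both as log2(FPKM + 1) KIT-labelled minus THY1-labelled, for the 10 overlapped genes over the minimum. Circles share exon bases and triangles do not. Trp53bp1, Fanca, Fancc, Rad54l and Fancl lie at the upper right with their overlapping genes, and Atr and Xrcc3 lie opposite to theirs.

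Other repair genes were put in lists from pathway knowledge, with earlier results of these data known. They were lower in the KIT-labelled library more often than higher. Of 104 over the minimum, 19 were higher by 2-fold or more in the KIT-labelled library (18.3%) and 57 in the THY1-labelled library (54.8%), beside 39.5% and 41.1% of all genes, with a median difference of -1.41. Of the 80 above 0 in both libraries, 18 were higher in the KIT-labelled library and 34 in the THY1-labelled library. Among all genes above 0 in both libraries these shares were 41.5% and 33.9%, with a median difference of 0.42. With at least 10 estimated fragments, 13 of 85 were higher in the KIT-labelled library and 54 in the THY1-labelled library, beside 29.7% and 52.4% of all genes. Further homologous recombination genes counted 4 higher and 10 lower of 22, but 4 and 4 of the 16 above 0 in both libraries, where their median difference was -0.06 in place of -0.89. They included the resection gene Rbbp8, listed at 0 in the KIT-labelled library and at 71.4 FPKM in the THY1-labelled library, and the SMC5/6 complex, with Smc5 at 1.48 FPKM in the KIT-labelled and 92.1 FPKM in the THY1-labelled library and Smc6 at 0.643 FPKM in the KIT-labelled and 103 FPKM in the THY1-labelled library. Uimc1, of the BRCA1-A complex, was listed at 0 in the KIT-labelled library and at 34.5 FPKM in the THY1-labelled library.

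Further Fanconi genes were mostly level, with 1 higher, 2 lower and 6 within 2-fold of 9. Ube2t, the conjugating enzyme for the core complex, was at 2.61 FPKM in the KIT-labelled library and 41.5 FPKM in the THY1-labelled library, and Wdr48, a cofactor of the enzyme that reverses its reaction, was at 49.7 FPKM in the KIT-labelled and 316 FPKM in the THY1-labelled library. The nuclease gene Ercc4 was higher in the KIT-labelled library at 14.3 FPKM, against 6.22 FPKM in the THY1-labelled library. Its partner Ercc1 was within 2-fold at 69.7 FPKM in the KIT-labelled library and 130 FPKM in the THY1-labelled library. Further checkpoint genes counted 4 higher and 7 lower of 15, among them the clamp loader gene Rad17 at 1.69 FPKM in the KIT-labelled and 63.1 FPKM in the THY1-labelled library, the p53-restraining ligase gene Mdm2 at 3.40 FPKM in the KIT-labelled and 62.2 FPKM in the THY1-labelled library and the fork-protection gene Tipin at 9.32 FPKM in the KIT-labelled and 116 FPKM in the THY1-labelled library. Clspn, a mediator of CHK1 activation, was listed at 0 in the KIT-labelled library and at 6.52 FPKM in the THY1-labelled library.

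Further end joining genes counted 2 higher and 7 lower of 11. Parp1, a sensor of strand breaks, was at 0.616 FPKM in the KIT-labelled library and 118 FPKM in the THY1-labelled library, and Aptx, which cleans up unfinished ligations, was at 1.12 FPKM in the KIT-labelled and 41.1 FPKM in the THY1-labelled library. Nhej1, which aids the final ligation, was listed at 0 in the KIT-labelled library and at 11.2 FPKM in the THY1-labelled library, whereas Dclre1c, the Artemis nuclease gene, was higher in the KIT-labelled library at 67.6 FPKM, against 14.4 FPKM in the THY1-labelled library. Mismatch repair genes and their replication partners counted 2 higher and 5 lower of 8, and 2 each way of the 5 above 0 in both libraries. The replicative ligase gene Lig1 was listed at 0 in the KIT-labelled library and at 28.6 FPKM in the THY1-labelled library. In addition, the mismatch repair gene Msh3 was at 2.29 FPKM in the KIT-labelled and 15.7 FPKM in the THY1-labelled library and Pcna, the sliding clamp, was at 19.3 FPKM in the KIT-labelled and 3.97 FPKM in the THY1-labelled library.

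Repair of damaged bases and of bulky lesions differed in its counts. Base excision repair had 4 higher and 4 lower of 11, and 4 higher and 1 lower of the 8 above 0 in both libraries, with Polb, the gap-filling polymerase gene, listed at 0 in the KIT-labelled library and at 355 FPKM in the THY1-labelled library, and the scaffold gene Xrcc1 at 6.90 FPKM in the KIT-labelled and 40.1 FPKM in the THY1-labelled library. The flap nuclease gene Fen1 was at 18.5 FPKM in the KIT-labelled library and 2.79 FPKM in the THY1-labelled library, and the glycosylase gene Nthl1 was listed at 0 in the KIT-labelled library and at 5.53 FPKM in the THY1-labelled library. Nucleotide excision repair had 1 higher and 11 lower of 15. Ddb1, of the damage-binding ubiquitin ligase, was at 4.05 FPKM in the KIT-labelled and 212 FPKM in the THY1-labelled library and the TFIIH gene Gtf2h1 at 3.05 FPKM in the KIT-labelled and 91.7 FPKM in the THY1-labelled library, and the TFIIH genes Ercc3 and Gtf2h2 were listed at 0 in the KIT-labelled library and at 29.9 and 32.8 FPKM in the THY1-labelled library.

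**Figure D4:**
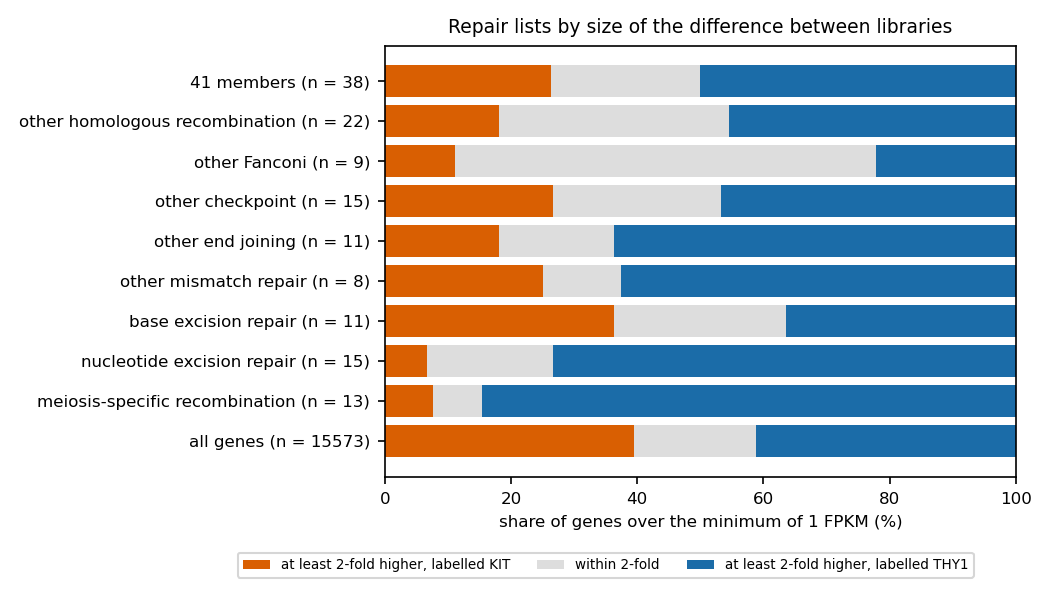
Share of genes higher by 2-fold or more in the KIT-labelled library (left segment), within 2-fold (middle) and higher by that size in the THY1-labelled library (right segment), for the 41 repair genes, 8 further lists and all genes, counting those whose larger level was 1 FPKM or more. The left segment holds 26.3% of the repair genes and 39.5% of all genes, and the right segment 50% and 41.1%.

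Recombination genes used in meiosis were mostly lower in the KIT-labelled library. Of 13, 1 was higher in the KIT-labelled library and 11 in the THY1-labelled library, beside 39.5% and 41.1% of all genes. The median difference was -3.49. The gene that ran the other way was Mnd1, at 17.8 FPKM in the KIT-labelled library and listed at 0 in the THY1-labelled library. Of the 7 above 0 in both libraries, 0 were higher in the KIT-labelled library and 6 in the THY1-labelled library, with a median of -1.35. The shares of all genes above 0 in both libraries were 41.5% and 33.9%. Dmc1, the meiotic recombinase, was listed at 0 in the KIT-labelled library and at 52.6 FPKM in the THY1-labelled library. Psmc3ip, a DMC1 cofactor, was at 4.67 FPKM in the KIT-labelled and 173 FPKM in the THY1-labelled library, and Tex11 and Spata22 were listed at 0 in the KIT-labelled library and at 47.5 and 19.9 FPKM in the THY1-labelled library.

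Cell type markers differed between the libraries, and some lists were split in direction. The counts here and in the next paragraph stand beside all genes over the minimum. Of those, 39.5% were higher by 2-fold or more in the KIT-labelled library and 41.1% in the THY1-labelled library. Of 14 spermatocyte markers, 1 was higher by 2-fold or more in the KIT-labelled library and 13 in the THY1-labelled library, and their summed level was 241 FPKM in the KIT-labelled library and 9083 FPKM in the THY1-labelled library, with Tex101 and Adam2 listed at 0 in the KIT-labelled library. Of 8 Leydig cell markers, 0 were higher in the KIT-labelled library and 7 in the THY1-labelled library, with sums of 189 FPKM in the KIT-labelled library and 12931 FPKM in the THY1-labelled library, and Hsd3b6 and Hsd17b3 were listed at 0 in the KIT-labelled library. Of 18 genes of cycling cells, 3 were higher in the KIT-labelled library and 10 in the THY1-labelled library, with sums of 187 FPKM in the KIT-labelled and 460 FPKM in the THY1-labelled library, and with Mcm3 and Rrm2 listed at 0 in the KIT-labelled library and Tyms in the THY1-labelled library. Spermatid markers were split, 6 each way of 12, with sums of 5066 FPKM in the KIT-labelled library and 4020 FPKM in the THY1-labelled library, and Spaca1 and Crem listed at 0 in the KIT-labelled library. Without Prm1 the sums were 2660 FPKM in the KIT-labelled library and 3836 FPKM in the THY1-labelled library. Without Prm1 and Odf2 they were 2561 FPKM in the KIT-labelled library and 1479 FPKM in the THY1-labelled library. Markers of undifferentiated spermatogonia summed to 263 FPKM in the KIT-labelled library and 9.74 FPKM in the THY1-labelled library, with 6 higher in the KIT-labelled library and 1 in the THY1-labelled library of 7 over the minimum. Zbtb16 and Lin28a were listed at 0 in both, Etv5 in the KIT-labelled library and Pou5f1 and Cdh1 in the THY1-labelled library. Their part in the repair gene differences was not tested.

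In several of the remaining marker lists 1 or 2 genes, singled out after their values were seen, set the sum. Macrophage markers counted 4 higher in the KIT-labelled library, namely C1qa, C1qb, C1qc and Lyz2, and 3 in the THY1-labelled library of 9, with sums of 270.5 FPKM in the KIT-labelled library and 967 FPKM in the THY1-labelled library and C1qc listed at 0 in the THY1-labelled library. Without Aif1 the sums were 246 FPKM in the KIT-labelled library and 86.6 FPKM in the THY1-labelled library. Peritubular and stromal markers counted 4 each way of 8, with sums of 234 FPKM in the KIT-labelled and 1500 FPKM in the THY1-labelled library and Dcn listed at 0 in the KIT-labelled library. Without Sparc and Vcam1 the sums were 219 FPKM in the KIT-labelled library and 186 FPKM in the THY1-labelled library. Sertoli cell markers counted 3 higher in the KIT-labelled library and 5 in the THY1-labelled library of 8, with sums of 46.2 FPKM in the KIT-labelled and 1334 FPKM in the THY1-labelled library and Vim listed at 0 in the KIT-labelled library. Without Clu and Vim the sums were 44.6 FPKM in the KIT-labelled library and 111 FPKM in the THY1-labelled library. Differentiating spermatogonia markers counted 0 higher in the KIT-labelled library and 7 in the THY1-labelled library of 10, with sums of 53.4 FPKM in the KIT-labelled and 214 FPKM in the THY1-labelled library and Kit, Sohlh2, Rhox13 and Dnmt3b listed at 0 in the KIT-labelled library. That list also held Kitl, the gene for the KIT ligand, and Uchl1, which are not particular to these cells. Without Kitl and Uchl1 the sums were 43.4 FPKM in the KIT-labelled library and 110 FPKM in the THY1-labelled library. T lymphocyte markers counted 4 higher in the KIT-labelled library and 1 in the THY1-labelled library of 6, with sums of 51.8 FPKM in the KIT-labelled and 14.7 FPKM in the THY1-labelled library, Cd3g listed at 0 in both and Cd3e in the THY1-labelled library.

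Promoter sequence was compared next, because members of a complex often differed unlike each other. RefSeq promoters (build GRCm38.p6) were at hand for 33 of the 41 genes, and the 250 bases before the annotated start were searched on both strands. The words sought were TTCCCGC, as bound by E2F factors, and its variant form TTGGCGC, then the NF-Y word CCAAT, and last the cyclic AMP response word TGACGTCA. A variant E2F word that follows an A overlaps a CCAAT word on the opposite strand. An E2F word was present in 12 of the 33 (36.4%), beside 7.77% of 14281 promoters of genes in the tables. CCAAT was present in 20 (60.6%), beside 35.9%, and TGACGTCA in 2 (6.06%), beside 2.13%. The median GC content was 58.8% for the repair genes and 56.4% for all 14281.

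By direction, an E2F word was found in 0 of the 8 promoters of genes higher in the KIT-labelled library, in 5 of the 14 of genes higher in the THY1-labelled library, in 5 of the 8 of genes within 2-fold, and in 2 of the 3 of genes under the minimum. In the same order, CCAAT was found in 5 of 8, 9 of 14, 4 of 8 and 2 of 3. TGACGTCA was found in 0 of 8, 1 of 14, 1 of 8 and 0 of 3. Shares of all genes by direction were not computed, so these counts do not tie a word to a direction. A match is a description of letters and not a binding site. The 4 promoters below are examples, each 5′ to 3′ on the strand of its gene. Fancc and Fanci are genes higher in the KIT-labelled library. Chek2 and Mdc1 were picked among the 5 genes higher in the THY1-labelled library that hold an E2F word. They therefore do not stand for all 14. Capitals mark E2F words, as TTCCCGC when on the strand shown and as GCGGGAA when on the opposite strand. Capitals also mark the NF-Y word, as CCAAT when on the strand shown and as ATTGG when on the opposite strand. Fancc is at chr13:63431746-63431995 (minus strand), Fanci at chr7:79392088-79392337 (plus), Chek2 at chr5:110839733-110839982 (plus) and Mdc1 at chr17:35841248-35841497 (plus).
Fancc: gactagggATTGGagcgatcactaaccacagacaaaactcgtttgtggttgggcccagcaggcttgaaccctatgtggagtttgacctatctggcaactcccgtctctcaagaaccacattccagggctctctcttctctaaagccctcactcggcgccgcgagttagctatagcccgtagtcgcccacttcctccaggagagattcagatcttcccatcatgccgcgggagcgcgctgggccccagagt
Fanci: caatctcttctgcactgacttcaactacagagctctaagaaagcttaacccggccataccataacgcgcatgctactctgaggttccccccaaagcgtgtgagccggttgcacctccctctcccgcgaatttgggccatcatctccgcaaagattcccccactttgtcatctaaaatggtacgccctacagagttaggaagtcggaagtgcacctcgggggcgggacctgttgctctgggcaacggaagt
Chek2: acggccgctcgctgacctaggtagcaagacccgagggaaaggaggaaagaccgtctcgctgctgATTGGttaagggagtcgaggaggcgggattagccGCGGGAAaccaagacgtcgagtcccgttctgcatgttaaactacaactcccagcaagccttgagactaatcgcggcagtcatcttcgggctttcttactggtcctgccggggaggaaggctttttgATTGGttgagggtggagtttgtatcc
Mdc1: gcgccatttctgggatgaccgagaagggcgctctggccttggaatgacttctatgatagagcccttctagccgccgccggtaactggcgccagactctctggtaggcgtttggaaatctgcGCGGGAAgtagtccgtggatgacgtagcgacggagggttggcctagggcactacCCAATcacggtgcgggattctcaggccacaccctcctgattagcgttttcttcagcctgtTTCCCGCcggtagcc
Chek2 holds 1 E2F word and 2 CCAAT words, Mdc1 holds 2 E2F words and 1 CCAAT word, Fancc holds 1 CCAAT word and Fanci holds none of the words searched.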

How the data were processed

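The deposited tables hold a gene symbol and a decimal value per row, with no unit in the header. The values were taken as FPKM made by the authors, since the submitters' processing notes name Cufflinks 2.1.1, beside TopHat 1.4.1, CASAVA and mm9, without roles. Annotation, strand setting, handling of multiply aligned reads and filters are not stated in those notes. FPKM divides by a total that abundant noncoding RNA can dominate, which lowers other values.

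Tables were tied to samples by the series' file records and to groups by sample title. Differences used log2(FPKM + 1), which understates changes of low genes, with a minimum of 1 FPKM in the larger value and a size of 2-fold. The members and lists were chosen with earlier results of these data known. Every member is named, and per pathway list up to 4 genes with the largest difference and at least 5 FPKM. Mnd1 is named besides, for its direction. Marker lists are given by counts, sums and members listed at 0. GENCODE M21, on another build, gave transcript lengths (the longest coding transcript of each member) and gene overlaps only, for 18395 symbols (89.0%). Depth is unknown, so no interval is given. Scripts were tested on simulated data. Other settings are listed in the closing section. Software was Python 3.11.15 with matplotlib 3.10.9, scipy 1.17.1, pandas 2.3.3 and numpy 2.4.6.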

Additional observations from a re-analysis of the deposited data

How the results depend on the processing

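The alternatives were adding 0.1 in place of 1 FPKM, scaling to a median ratio of 1, to the same upper quartile or to the same sum without Rpph1, no minimum, a minimum of 5 FPKM, genes above 0 in both libraries, and, added after seeing the data, at least 10 estimated fragments and marker sums without their highest genes. Across the first 8 of them the repair genes counted as higher numbered 7 to 11 in the KIT-labelled library and 13 to 23 in the THY1-labelled library. The genes that passed ranged from 32 to 41. Shares of all genes also moved, from 29.7% to 42.4% for the KIT-labelled library and from 31.0% to 52.4% for the THY1-labelled library. For example, 13 of 32 stood beside 33.9% of all genes and 23 of 38 beside 46.2%, both for the THY1-labelled library. The median difference of the repair genes ran from -1.50 to -0.74. The 3 scalings put the median of all genes at -0.57, 0.26 and 0.22, and relative to it the repair genes lay between -1.01 and -0.93. That gap was -0.64 with a minimum of 5 FPKM, where the median of all genes was -0.40, and -1.18 among genes above 0 in both libraries. No called gene changed sign. Topbp1 (-0.75 and -0.79) and Fancd2 (-0.84 and -0.89) came within 2-fold after scaling to the upper quartile and to the sum without Rpph1. Atm (-1.47), Bard1 (-1.18), Exo1 (-1.04) and Xrcc6 (-1.34) passed 2-fold after scaling to the median ratio, Atm (-1.06) and Bard1 (-1.14) when 0.1 was added, and Brca2 (1.02) at the upper quartile. Adding 0.1 also moved the size of 11 differences by over 1.5-fold, such as that of Prkdc to -5.37, against -3.46. With at least 10 estimated fragments the median of all genes moved to -1.18 and the gap to 0.11, a setting whose construction favours the deeper library. No paired analysis was possible because each group has 1 library.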
